A study of Mus musculus with 6 samples.

Results

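The genes described here are 10 genes that make, conjugate, move and sense bile acids in the liver, measured as mRNA by RNA-seq: Cyp7a1, Cyp8b1, Cyp27a1, Cyp7b1, Hsd3b7, Akr1d1, Baat, Slc10a1, Abcb11 and Nr0b2. They were chosen by name for their place in bile acid metabolism and not by a rule on their values, though earlier results of these data were known. They are 10 of 35540 gene symbols in the table. All 10 were among the 14189 genes with enough signal to be tested. The study removed Surf4, an endoplasmic reticulum cargo receptor for secreted proteins, from hepatocytes. Liver RNA was compared between 3 mice of the genotype Surf4 fl/fl Alb-Cre+ and 3 controls of the genotype Surf4 fl/fl Alb-Cre-. Every mouse was homozygous for a conditional Surf4 allele that carries loxP sites on either side of exon 2, and only the first group also carried a Cre recombinase transgene. The Albumin promoter drives that transgene in hepatocytes, so the other cells of the liver keep Surf4. Each group held 2 male mice, with replicate numbers 1 and 3, and 1 female mouse, with replicate number 2, so sex and replicate number 2 cannot be told apart. The mice were housed with free access to food under a light-dark cycle, and the study's methods describe an overnight fast before blood and tissue were taken. Their age and the hour of collection were not given in the sources used here.

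Values are in TPM, a unit of relative transcript abundance that is scaled for transcript length, so that levels can be compared between genes. TPM adds up to the same total in every mouse. A value is thus a share of that total, and a comparison between mice also depends on the other genes. The 10 highest genes took 20.9% to 25.9% of the total. TPM keeps no read count, so the depth behind each value is unknown. Between 10059 and 11125 genes reached 1 TPM in a mouse, and mitochondrial genes took 10.8% to 12.2% of the total. Surf4 itself, which checks the labels, was at 59, 71.8 and 54.3 TPM in the Alb-Cre+ mice and at 92.5, 94.5 and 92.5 TPM in the controls. Reads from the exons that stay in the recombined allele still count towards this value. All Alb-Cre+ mice lay below all controls for this gene, with a log2 fold change of -0.60 (SE 0.13, n = 3 against 3, limma adjusted p = 1). Hepatocyte markers (Alb, Apoa1, Ttr, Serpina1c, Cps1 and Tat) summed to between 59707 and 85769 TPM in each of the 6 mice. Of the 4 pancreas markers, Prss2, Cpa1 and Pnlip were at 0 in all mice and Cela2a was at 0.703 to 1.06 TPM.

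Bile acids are made from cholesterol in hepatocytes, and their synthesis is a main route by which the body disposes of cholesterol. The classical pathway starts with CYP7A1, the rate-limiting cholesterol 7-alpha-hydroxylase, and CYP8B1 then sets the share of cholic acid, whereas the alternative pathway starts with the mitochondrial enzyme CYP27A1 and continues with CYP7B1. Bile acids are conjugated, pumped into bile by ABCB11, and taken back up from portal blood by SLC10A1, and they limit their own synthesis in part through the nuclear receptor FXR and its target NR0B2 (SHP), a repressor of Cyp7a1 and Cyp8b1.

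The letters just upstream of the start site are printed for Cyp8b1, Cyp27a1 and Nr0b2, which are members with a RefSeq window whose mRNA was lower in both female mice than in every male mouse. Each stretch is the 250 bases before the start site on the gene's own strand, 5′ to 3′, from RefSeq on GRCm38.p6, at chr9:121916306-121916555 on the minus strand for Cyp8b1, chr1:74713285-74713534 on the plus strand for Cyp27a1 and chr4:133553126-133553375 on the plus strand for Nr0b2. Capitals mark a match to a searched motif, and only the Nr0b2 stretch holds one.
Cyp8b1: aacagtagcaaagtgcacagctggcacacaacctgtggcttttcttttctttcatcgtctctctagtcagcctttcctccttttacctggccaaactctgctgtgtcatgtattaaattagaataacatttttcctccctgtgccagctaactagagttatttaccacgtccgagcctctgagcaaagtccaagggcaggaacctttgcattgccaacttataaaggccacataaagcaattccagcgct
Cyp27a1: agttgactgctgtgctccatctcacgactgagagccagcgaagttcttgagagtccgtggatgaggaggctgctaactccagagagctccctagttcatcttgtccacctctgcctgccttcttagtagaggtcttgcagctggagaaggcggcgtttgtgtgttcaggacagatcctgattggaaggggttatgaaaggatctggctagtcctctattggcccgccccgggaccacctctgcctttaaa
Nr0b2: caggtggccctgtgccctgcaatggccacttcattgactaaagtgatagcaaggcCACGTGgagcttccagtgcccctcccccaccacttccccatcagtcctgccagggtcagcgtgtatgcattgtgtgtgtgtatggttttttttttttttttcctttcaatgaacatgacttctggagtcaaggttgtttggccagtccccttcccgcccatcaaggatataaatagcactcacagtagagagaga

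Windows were found for 7 of the members, 8 windows in all because Slc10a1 has more than 1 start site, and not for Cyp7a1, Cyp7b1 or Baat. The 4 motifs searched on both strands were AAGGTCA (a site of nuclear receptors that bind as monomers), an inverted repeat of AGGTCA spaced by 1 base (the IR1 element bound by FXR), TTATGTAA (the D-box of the clock output factors) and CACGTG (the E-box of the clock activators). Among 32851 such windows, AAGGTCA was present in 4.08%, the exact IR1 in 0.00609%, TTATGTAA in 0.819% and CACGTG in 6.02%. The single match among the members was CACGTG in the Nr0b2 window, with its first base 195 bases before the start site. These matches describe letters and do not show binding.

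On the TPM scale the members spread widely. Slc10a1, the sodium-dependent bile acid uptake transporter of the sinusoidal membrane, had the highest mean at 568 ± 111 TPM (SD, n = 6 mice), which placed it at rank 234 of all genes. The enzymes Cyp8b1 (300 ± 162 TPM), Cyp27a1 (256 ± 51.9 TPM), Hsd3b7 (231 ± 44.2 TPM) and Baat (225 ± 21.1 TPM) followed. Akr1d1 averaged 81.1 ± 13.2 TPM, Cyp7a1 59.8 ± 41.9 TPM and Abcb11 43.9 ± 9.2 TPM. The lowest were Cyp7b1 at 33.1 ± 21.5 TPM and Nr0b2 at 25.6 ± 21 TPM, rank 2811. Of the 9 steps between neighbours in this order, the ranges over the 6 mice were apart only between Baat and Akr1d1. Slc10a1 lay above Cyp8b1 in all 6 mice, but the lowest Slc10a1 value, 402 TPM, was below the highest Cyp8b1 value, 571 TPM. Hsd3b7 over Baat, Cyp7a1 over Abcb11 and Cyp7b1 over Nr0b2 each held in only 3 of 6 mice, so the order within these pairs was not resolved.

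**Figure D1:**
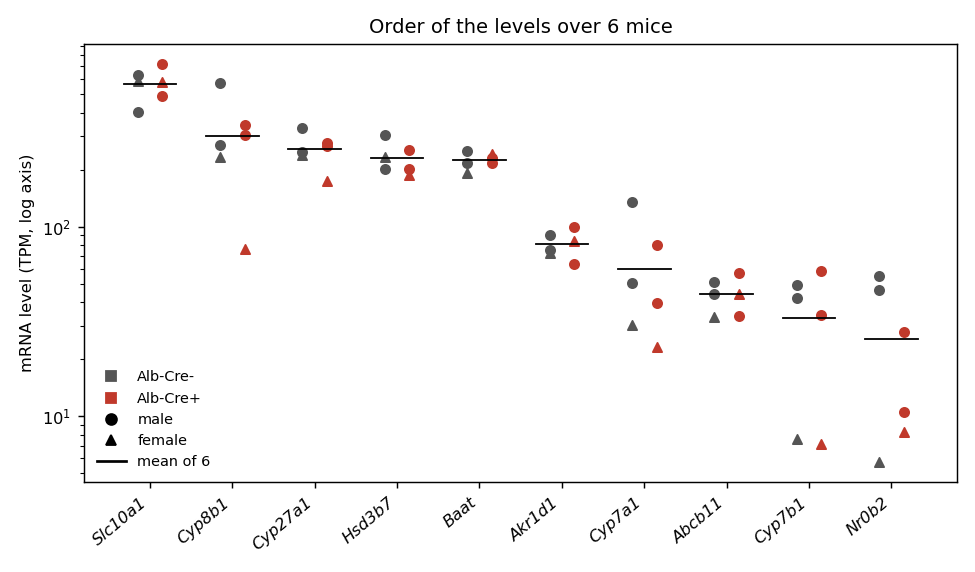
mRNA levels in TPM on a log axis for the 10 genes in order of their mean, with 1 point per mouse (grey Alb-Cre-, red Alb-Cre+, circles male, triangles female) and a line at the mean of 6 mice. Slc10a1 stands highest at a mean of 568 TPM, and Cyp7b1 has its female mice far below the male mice. For Nr0b2 the higher female mouse, at 8.28 TPM, is close to the lowest male mouse, at 10.5 TPM.

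The variation among mice was itself uneven. Relative to its mean Baat varied least, from 192 to 251 TPM, whereas Cyp7a1 ran from 23.1 to 135 TPM, Cyp7b1 from 7.11 to 58.5 TPM and Nr0b2 from 5.71 to 54.8 TPM. For most members 1 transcript carried the signal. A 6-exon Cyp7a1 transcript held 96.9% to 98.8% of that gene's TPM, and Cyp8b1, a gene with a single exon, and Cyp7b1 and Nr0b2 had 1 listed transcript each. Slc10a1 was divided, with a 5-exon transcript at 76.3% to 90.4% of its TPM and a 6-exon transcript at 9.36% to 23.4%. Hsd3b7 had 13 listed transcripts, of which a 7-exon one held 82.7% to 87.5%.

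The comparison between genotypes asked whether these genes differ in livers without hepatocyte SURF4. No member passed the test. In limma on log2(TPM + 0.1), the adjusted p of every member was 1, and an adjusted p under 0.01 was reached by 0 of 14189 genes (0%), with 250 genes (1.76%) at an unadjusted p under 0.05 and 0 of the 10 members among them. Surf4, the targeted gene, was not called by this test either. By DESeq2 at a false discovery rate of 0.01, the study itself reported a limited set of changed transcripts in these livers. The count of 0 genes here therefore does not mean that no gene differed between the genotypes. None of the members had values that did not overlap between the genotypes, against 695 of all genes (4.9%). The median log2 fold change was -0.13 over the members, 4 higher and 6 lower, and -0.00 over all genes tested. By exact two-sided permutation tests on TPM, the members' p-values ran from 0.4 to 1, where 3 mice against 3 cannot go below 0.1. Fewer hepatocytes and less RNA per hepatocyte cannot be told apart in these whole-liver samples. In the following, values of a group are in the order of replicate numbers 1, 2 and 3, so that the middle value is the female mouse. A pair is the Alb-Cre+ and control mouse with the same number, and the labels do not say that these mice were paired.

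Cyp7a1 (chr4:6265612-6275633, minus strand, GRCm38) encodes the enzyme that commits cholesterol to the classical pathway. It was at 80.2, 23.1 and 39.5 TPM in the Alb-Cre+ mice and at 135, 30.2 and 50.7 TPM in the controls. The groups overlapped widely, and within every pair the Alb-Cre+ mouse was the lower one, at 59.5%, 76.5% and 77.9% of its control. The group means were 47.6 ± 29.4 and 71.9 ± 55.5 TPM (SD, n = 3), which gave a log2 fold change of -0.50 (SE 0.62, 95% confidence interval -1.97 to 0.97). When mice were compared within pairs, by a replicate block, the same difference had an SE of 0.12 and an interval of -0.79 to -0.20, with a limma adjusted p = 0.675. That made Cyp7a1 the 1 member among 666 genes (4.69%) at an unadjusted p under 0.05 in the blocked fit, in which 0 genes passed the adjusted threshold. With sex as a covariate in place of the block, the unadjusted limma p was 0.26, against 0.00706 with the block. Without control replicate 1, the mouse with the highest level, the unblocked log2 fold change became 0.10.

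Cyp8b1 (chr9:121914356-121916305, minus strand) encodes the sterol 12-alpha-hydroxylase of the classical pathway. Its levels were 304, 76.4 and 345 TPM in the Alb-Cre+ mice and 571, 233 and 270 TPM in the controls. The Alb-Cre+ female mouse was the lowest of the 6 and control replicate 1 the highest, while the pair with number 3 went the other way, at 128% of its control. The means were 242 ± 145 and 358 ± 185 TPM, and the log2 fold change of -0.72 (SE 0.61, interval -2.17 to 0.72, limma adjusted p = 1) was within the spread between mice. Without the Alb-Cre+ female mouse it was -0.03. Without the block, the interval left out a 2-fold lower level for neither enzyme of the classical pathway. With the block, which assumes that the numbers pair the mice, it did for Cyp7a1 but not for Cyp8b1 (-1.63 to 0.18).

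The alternative pathway gave no difference between the genotypes past the spread between mice. Cyp27a1 (chr1:74713574-74737892, plus strand), the sterol 27-hydroxylase, was at 277, 174 and 265 TPM in the Alb-Cre+ mice and at 332, 238 and 248 TPM in the controls. Its log2 fold change was -0.20 (SE 0.22, interval -0.73 to 0.32), and 0.01 without the Alb-Cre+ female mouse. Cyp7b1 (chr3:18071950-18243338, minus strand), the oxysterol 7-alpha-hydroxylase, was at 34.2, 7.11 and 58.5 TPM and at 42.3, 7.62 and 49.1 TPM, respectively. Its group means were almost equal, 33.3 ± 25.7 and 33 ± 22.2 TPM, and the 1 female mouse in each group was far below the males. The log2 fold change was -0.05 with an SE of 0.94 and an interval of -2.28 to 2.18, so a difference of several fold in either direction could not be left out, and it became 0.32, 0.43 or 0.83 without control replicate 1, control replicate 3 or the Alb-Cre+ female mouse. The blocked fit gave the narrower interval of -0.40 to 0.30.

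**Figure D2:**
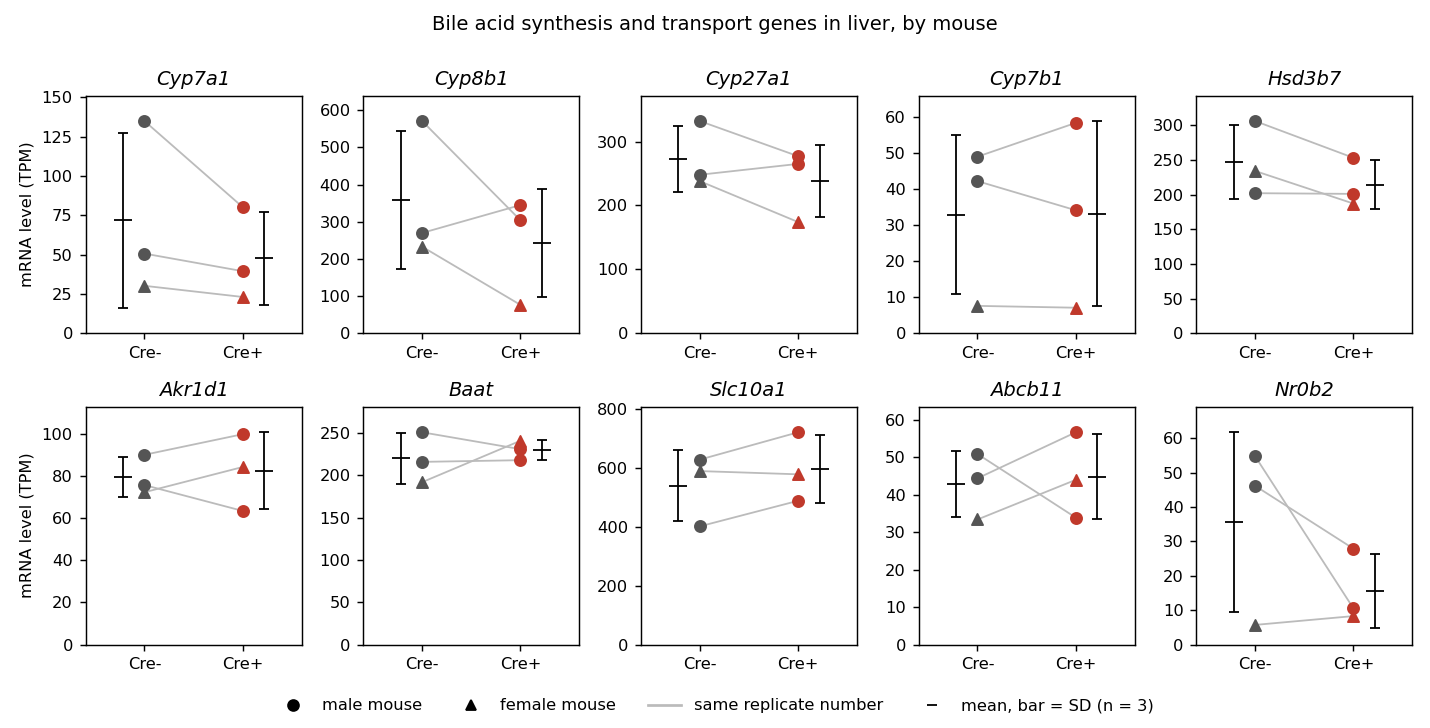
mRNA level in TPM (vertical axis from 0, its own scale per gene) of each of the 10 genes in Alb-Cre- (grey) and Alb-Cre+ (red) mice, circles male and triangles female, with lines joining mice of the same replicate number and bars giving the mean and SD of 3 mice. The groups overlap in every panel, and the Cyp7a1 and Hsd3b7 lines slope down in all 3 pairs.

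Among the enzymes that both pathways share, Hsd3b7 (chr7:127800604-127803802, plus strand), the 3-beta-hydroxy-C27-steroid oxidoreductase, was at 253, 187 and 201 TPM in the Alb-Cre+ mice and at 306, 234 and 202 TPM in the controls. The Alb-Cre+ mouse was the lower one in all 3 pairs, though in the pair with number 3 the values were nearly the same, at 99.3% of the control, and that pair had a log2 difference of 0.13 when the values were rescaled by the median of ratios. Cyp7a1 and Hsd3b7 were thus 2 of 10 members lower in all 3 pairs, against 1765 of all genes (12.4%), and 0 members were higher in all 3 pairs, against 1627 of all genes (11.5%). After rescaling, the Cyp7a1 pairs remained at -0.73, -0.51 and -0.22 on the log2 scale.

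The log2 fold change of Hsd3b7 was -0.20 (SE 0.19, interval -0.66 to 0.25), and -0.04 without control replicate 1. Akr1d1 (chr6:37530173-37568815, plus strand), the 5-beta-reductase, was at 100, 84.4 and 63.5 TPM in the Alb-Cre+ mice and at 90.2, 72.4 and 75.8 TPM in the controls, and the groups lay on top of each other. Baat (chr4:49489422-49506557, minus strand), which joins bile acids to taurine or glycine, was at 231, 241 and 218 TPM and at 251, 192 and 216 TPM, respectively. The log2 fold changes were 0.04 (SE 0.19, interval -0.41 to 0.48) for Akr1d1 and 0.07 (SE 0.14, interval -0.25 to 0.39) for Baat. Both changed sign within this range when 1 mouse was left out, to -0.03 and -0.02 without the control female mouse, and to -0.11 for Akr1d1 without Alb-Cre+ replicate 1.

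Neither transporter separated the genotypes. Slc10a1 (chr12:80953183-80968705, minus strand) was at 722, 579 and 489 TPM in the Alb-Cre+ mice and at 629, 590 and 402 TPM in the controls, a log2 fold change of 0.15 (SE 0.22, interval -0.38 to 0.68) that became -0.05 without control replicate 3. Abcb11 (chr2:69238282-69342616, minus strand), the canalicular bile salt export pump, was at 56.7, 44 and 33.9 TPM and at 44.4, 33.4 and 50.9 TPM, with a log2 fold change of 0.05 (SE 0.23, interval -0.50 to 0.60). It became -0.12 without the control female mouse and -0.13 without Alb-Cre+ replicate 1. In the fit without the block, the 95% interval left out a 2-fold difference in either direction for Cyp27a1, Hsd3b7, Akr1d1, Baat, Slc10a1 and Abcb11. Their interval ratios lay between 0.604 and 1.6. For Cyp7a1, Cyp8b1, Cyp7b1 and Nr0b2 it did not. With the block, which assumes that the numbers pair the mice, the intervals of Cyp7a1 (-0.79 to -0.20) and Cyp7b1 (-0.40 to 0.30) left it out as well.

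Nr0b2 (chr4:133553376-133556536, plus strand), the small heterodimer partner, is the feedback regulator among the members and had the lowest log2 fold change of the 10, -0.85 (SE 0.89, interval -2.95 to 1.24). It was at 27.9, 8.28 and 10.5 TPM in the Alb-Cre+ mice and at 46.2, 5.71 and 54.8 TPM in the controls. Both Alb-Cre+ males were below both control males, at 60.5% and 19.2% of the control of the same number, while the Alb-Cre+ female mouse was at 145% of its control. In the 4 male mice alone, an alternative chosen after the data were seen, the log2 fold change was -1.54 (limma adjusted p = 0.999), and without the control female mouse it was -1.89 (limma adjusted p = 0.999, both with an unadjusted p under 0.05). The shares of all genes with such an order of the males, or with such a p in these 2 fits, are not given here. The Nr0b2 log2 fold change was -0.40 without control replicate 1 and -0.27 without control replicate 3.

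**Figure D3:**
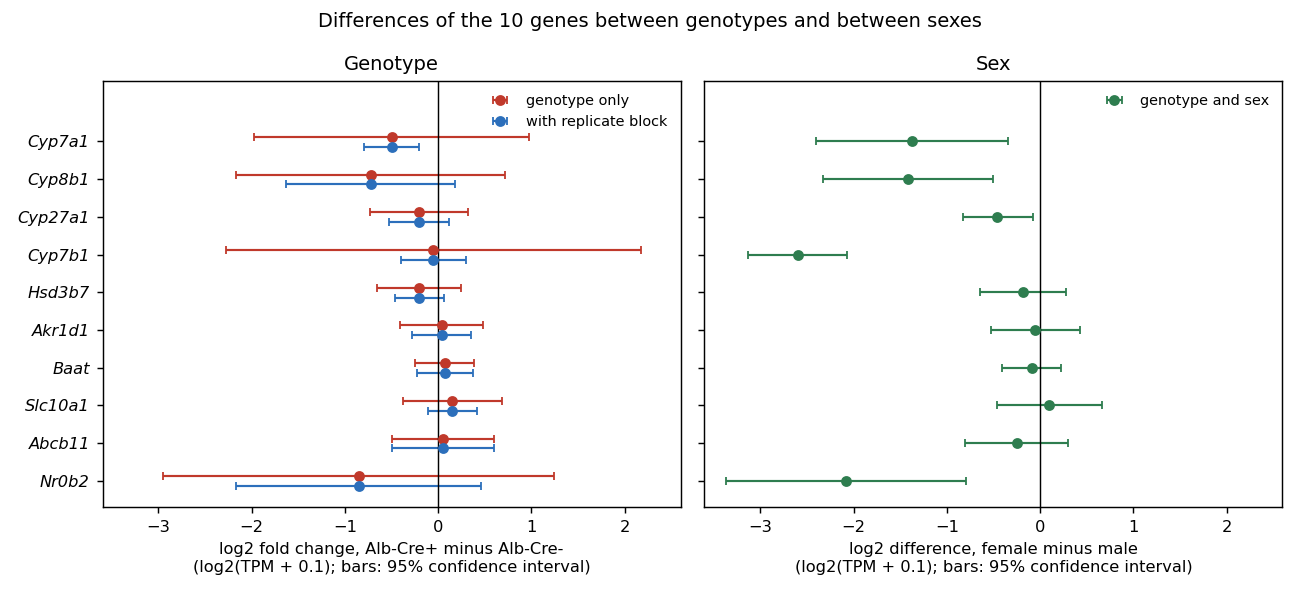
Log2 differences in log2(TPM + 0.1) with 95% confidence intervals for the 10 genes, on the left Alb-Cre+ minus Alb-Cre- from the fit with genotype only (red) and with the replicate block (blue), on the right female minus male with genotype as a term (green). On the left the Cyp7a1 interval leaves out 0 only with the block (-0.79 to -0.20), and on the right the intervals of Cyp7a1, Cyp8b1, Cyp27a1, Cyp7b1 and Nr0b2 lie below 0.

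Between the sexes, the first enzymes of both pathways and Nr0b2 were at their lowest in the female mice. In a limma fit with genotype and sex as terms, 1 member, Cyp7b1, passed the threshold, out of 73 of all genes (0.514%), of which 26 (0.183%) were lower in female mice. Cyp7b1 was at 7.11 and 7.62 TPM in the female mice and at 34.2 to 58.5 TPM, median 45.7 TPM, in the 4 male mice. The ranges were far apart, the male level being 6.06 times the female level, with a female minus male log2 difference of -2.60 (SE 0.22, interval -3.13 to -2.07, adjusted p = 0.00483). The difference was of like size within each genotype, -2.64 in the Alb-Cre+ mice and -2.56 in the controls. The limma adjusted p ran from 0.0017 to 0.146 over the alternatives, and was 0.146 without the Alb-Cre+ female mouse, 0.0919 without the control female mouse, 0.012 without control replicate 3, 0.024 with no filter on low values and 0.0186 with no variance trend.

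Beyond Cyp7b1, 4 members were lower in both female mice than in every male mouse, without passing the threshold. Cyp7a1 was at 23.1 and 30.2 TPM in the female mice and at 39.5 to 135 TPM in the males, a log2 difference of -1.37 (SE 0.43, limma adjusted p = 0.101). Cyp8b1 was at 76.4 and 233 TPM against 270 to 571 TPM in the males, a difference of -1.42 (SE 0.38, limma adjusted p = 0.0729). It was -2.08 in the Alb-Cre+ mice and -0.75 in the controls, and without the Alb-Cre+ female mouse the limma adjusted p was 0.5. Cyp27a1 had the narrowest gap, 174 and 238 TPM against 248 to 332 TPM, a difference of -0.46 (SE 0.16, limma adjusted p = 0.123). Nr0b2 was at 8.28 and 5.71 TPM against 10.5 to 54.8 TPM, a difference of -2.08 (SE 0.54, limma adjusted p = 0.0677), at -1.04 in the Alb-Cre+ mice and -3.12 in the controls. A test of the inequality between genotypes, added after the data were seen, gave an interaction of 2.07 (SE 0.85) for Nr0b2 and of -1.33 (SE 0.67) for Cyp8b1, both with a limma adjusted p = 0.775.

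As deposited, these 5 members were also the 5 of 10 with an unadjusted p under 0.05, against 4072 of all genes (28.7%). Both female mice lay below all male mice for 5 of 10 members and above all males for 0, whereas over all genes the corresponding shares were 709 genes (5%) and 5199 genes (36.6%). The deposited TPM values had a median female minus male log2 difference of 0.259 over all genes, and of 0.074 after rescaling by the median of ratios. The members' median was -0.35 as deposited. The sign was negative for 9 of 10 members as deposited, and Slc10a1, at 0.10, became -0.10 after rescaling, so that its direction depended on the scale. Rescaling moved the genes with an unadjusted p under 0.05 from 3631 higher and 441 lower in female mice to 2358 higher and 1377 lower, while the calls at the adjusted threshold went from 47 higher and 26 lower to 46 and 25. Rescaled, the Cyp7b1 difference was -2.80 (SE 0.27, limma adjusted p = 0.00963).

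As deposited, Hsd3b7, Akr1d1, Baat, Slc10a1 and Abcb11 had overlapping values in the sexes, with log2 differences between -0.25 and 0.10 and limma adjusted p-values from 0.507 to 0.878. Rescaled by the median of ratios, Hsd3b7 was at -0.38, Baat at -0.28 and Abcb11 at -0.45 (limma adjusted p = 0.249, 0.15 and 0.193). Baat then also had an unadjusted p under 0.05, so the split of the members by sex depended on the scale. Markers of other liver cells moved with sex. Kupffer cell markers (Clec4f, Vsig4, Cd5l, Adgre1 and Timd4) summed to 378 and 387 TPM in the female mice and to 97.6 to 161 TPM in the males, and all 5 were higher in both female mice, a pattern found in 36.6% of all genes. Stellate cell markers summed to 211 to 219 TPM against 83.2 to 159 TPM, sinusoidal endothelial markers to 146 to 177 TPM against 68.7 to 114 TPM, and neutrophil markers to 118 to 248 TPM against 18.8 to 44.1 TPM. Both female mice lay above all males for 3 of 5 stellate, 5 of 5 endothelial and 3 of 3 neutrophil markers. The female mice were lower for 1 of the 5 stellate markers. Lymphocyte marker sums were 3.97 to 5.03 TPM against 2.02 to 3.16 TPM, with 2 of 4 markers above all males in both female mice. Hepatocyte marker sums, 72944 to 85769 TPM against 59707 to 84703 TPM, and cholangiocyte marker sums, 38.4 to 42 TPM against 24.6 to 60.6 TPM, overlapped. Of the 6 single hepatocyte markers, 3 were lower and 3 higher in the female mice. Both female mice lay below all males for 2 of the 6, against 5% of all genes. The part of these markers in the sex difference was not tested. None of the 4 intestine markers reached the level needed for testing, and they summed to at most 0.347 TPM.

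Genes of known sex bias in mouse liver followed the labels. All 8 listed male-biased genes were lower in the female mice, 6 of them past the threshold, and all 8 listed female-biased genes were higher, 1 past it. Over all 14189 genes, 3311 were lower and 10878 higher in the female mice. Both female mice lay below all males for 8 of 8 male-biased genes, against 5% of all genes. They lay above all males for 6 of 8 female-biased genes, against 36.6% of all genes.

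The remaining genes of the pathway, 43 genes listed as other synthesis enzymes, other transporters and regulators, were read in the same way between the genotypes. Of these, 40 were tested, 17 higher and 23 lower in Alb-Cre+ mice, with a median log2 fold change of -0.04. None passed the adjusted threshold in limma, and 1 had an unadjusted p under 0.05, a count that was 8, 3 higher and 5 lower, with the replicate block, against 4.69% of all genes. Values did not overlap between the genotypes for 5 of 40 genes, 3 higher and 2 lower, against 4.9% of all genes. In all 3 pairs 7 were higher and 9 lower, against 11.5% and 12.4% of all genes. Those not tested were Slc51a, the organic solute transporter subunit, at no more than 0.054 TPM in any mouse, the bile acid receptor gene Gpbar1, at no more than 0.0474 TPM, and Fgf15, the intestinal hormone that limits Cyp7a1, listed at 0 in all mice.

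Cyp2a12, which hydroxylates secondary bile acids in mouse liver, was the gene with an unadjusted p under 0.05. It was at 456, 610 and 455 TPM in the Alb-Cre+ mice and at 361, 442 and 326 TPM in the controls, all Alb-Cre+ mice being above all controls. The log2 fold change was 0.43 (SE 0.18, limma adjusted p = 1). The other two genes with higher and separate values were Cyp46a1, a cholesterol 24-hydroxylase mostly of the brain, and Nr1h4, which encodes FXR. Cyp46a1 was at only 0.594, 0.395 and 0.647 TPM against 0.37, 0.383 and 0.19 TPM, with a log2 fold change of 0.65 (SE 0.36). Nr1h4 was at 94.2, 103 and 96.1 TPM against 90.1, 86.6 and 64.5 TPM, with a log2 fold change of 0.29 (SE 0.15), which was 0.14 without control replicate 3, and its lowest Alb-Cre+ value was close to the highest control value.

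Lower and separate were Scp2, the sterol carrier protein with the thiolase of peroxisomal side chain shortening, and Slc27a5, the bile acid-CoA ligase. Scp2 was at 2278, 1907 and 2032 TPM in the Alb-Cre+ mice and at 2801, 2394 and 2534 TPM in the controls, and its 3 pair differences were nearly equal, -0.30, -0.33 and -0.32 on the log2 scale. The log2 fold change was -0.31 (SE 0.16, limma adjusted p = 1), with an unadjusted p under 0.05 in the blocked fit. Slc27a5 was at 473, 416 and 442 TPM against 509, 483 and 490 TPM, a log2 fold change of -0.16 (SE 0.12).

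Cyp39a1, the oxysterol 7-alpha-hydroxylase for 24-hydroxycholesterol, had the largest difference among the 40 tested genes. It was at 31.1, 47.5 and 12.6 TPM in the Alb-Cre+ mice and at 43.3, 67.6 and 55.8 TPM in the controls, lower in every pair but with overlapping groups. The log2 fold change was -1.04 (SE 0.46, interval -2.11 to 0.04, limma adjusted p = 1), and leaving out 1 mouse at a time moved it between -1.46 and -0.51. In the blocked limma fit it was among the genes with an unadjusted p under 0.05 (adjusted p = 0.962). The regulators Klf15 (-0.67, SE 0.31) and Ppara (-0.45, SE 0.29) and the uptake transporter Slco1a4 (-0.58, SE 0.37) were also lower in all 3 pairs. Nr1i3, the constitutive androstane receptor (0.44, SE 0.36), and Abcd3, a peroxisomal importer (0.27, SE 0.23), were higher in all 3 pairs. Leaving out 1 mouse moved Klf15 to as little as -0.32 and Slco1a4 to -0.19, without the Alb-Cre+ female mouse and Alb-Cre+ replicate 1, respectively. It moved Ppara to -0.17 without Alb-Cre+ replicate 3, Nr1i3 to 0.13 without the Alb-Cre+ female mouse or control replicate 3, and Abcd3 to 0.06 without control replicate 3. The values of these 5 genes overlapped between the genotypes, and their unadjusted p-values in the blocked limma fit were under 0.05.

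**Figure D4:**
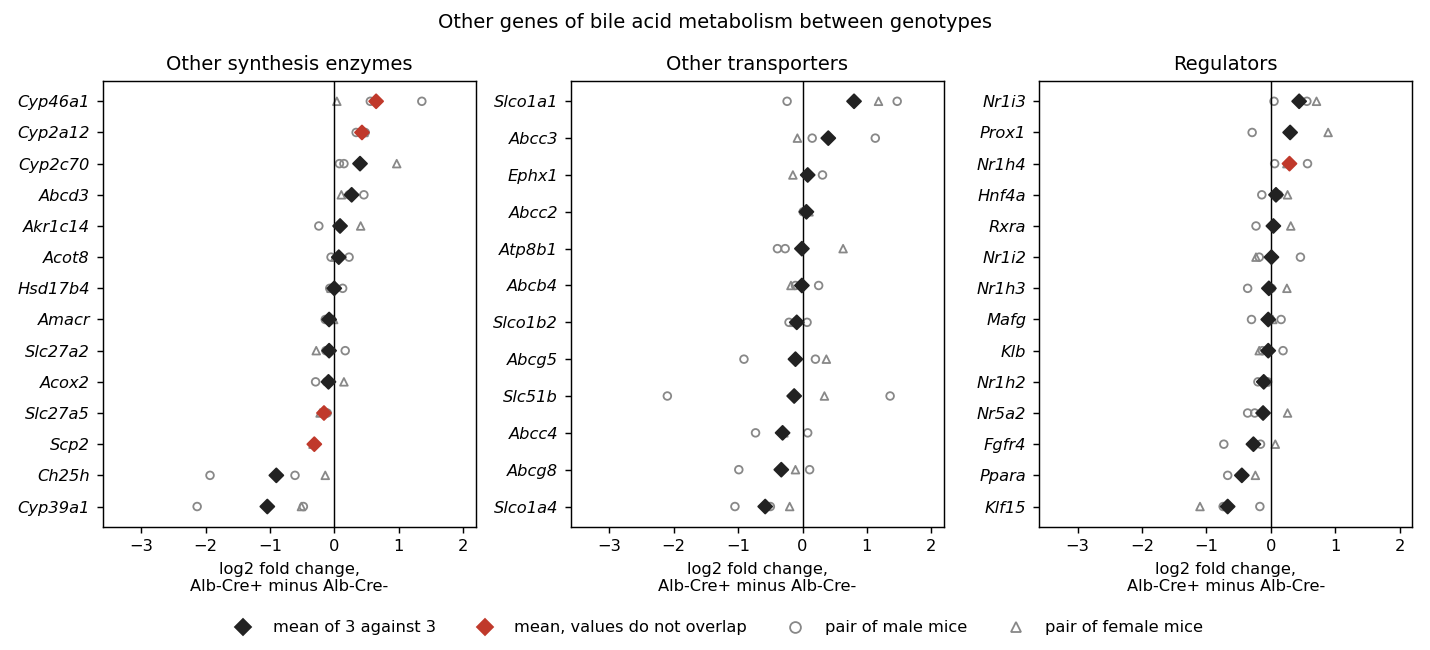
Log2 fold change in log2(TPM + 0.1), Alb-Cre+ minus Alb-Cre-, for 40 other genes of bile acid metabolism in 3 panels, with diamonds for the mean of 3 against 3 mice (red where the values of the groups do not overlap), circles for the pairs of male mice and triangles for the pair of female mice. Means run from -1.04 for Cyp39a1 to 0.80 for Slco1a1, and the pairs of 1 gene often lie on both sides of 0.

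Among these 40 genes, sex separated 1 past the threshold, Slco1a1, a male-biased uptake transporter of the organic anion family. It was at 1 and 0.386 TPM in the female mice and at 30.2 to 83.6 TPM, median 61.6 TPM, in the males, a log2 difference of -6.25 (SE 0.35, limma adjusted p = 0.000991). The adjusted p was 0.0705 without the Alb-Cre+ female mouse and 0.0642 without the control female mouse. Of the 40, 11 had an unadjusted p under 0.05 in this comparison, 9 higher and 2 lower in female mice, against 28.7% of all genes.

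Genes that respond to bile acid and oxysterol receptors did not separate the genotypes as groups. Of 9 tested FXR-responsive genes, a list that includes Nr0b2 and Slc27a5, 2 were higher and 7 lower in Alb-Cre+ mice, with a median log2 fold change of -0.13 and 0 past the threshold or at an unadjusted p under 0.05 in limma. Fetub (-0.17, SE 0.12), Kng1 (-0.23, SE 0.14) and Slc27a5 were the 3 with separate, lower values, where 385 of all 14189 genes were separate and lower. Of 9 LXR-responsive genes, 2 were higher and 7 lower, with a median of -0.05, with 0 past the threshold or at an unadjusted p under 0.05 in limma. Their largest differences were in Abcg8 (-0.33, SE 0.27), Abca1 (0.17, SE 0.44) and Pltp (-0.13, SE 0.55).

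Cyp7a1 mRNA is known to follow the time of day, so the 16 listed clock genes were read beside it. Of these, 6 were higher and 10 lower in Alb-Cre+ mice, with a median log2 fold change of -0.05 and 0 past the threshold or at an unadjusted p under 0.05 in limma. With the replicate block, 2 had an unadjusted p under 0.05, both lower. One was Nfil3, a repressor of clock output, at 13.4, 3.32 and 5.39 TPM in the Alb-Cre+ mice and 16.2, 11.7 and 11.4 TPM in the controls. Arntl, the clock activator, named here after its values were seen, was at 4.92, 1.52 and 1.71 TPM against 5.39, 3.64 and 2.68 TPM. The largest differences in this list were Nfil3 (-1.04, SE 0.47), Per3 (0.97, SE 0.60) and Ciart (-0.73, SE 0.59). In Nfil3, Arntl and Nr1d1, 3 of the 16 clock genes picked out by their values, the mice with replicate number 1 were the highest of both groups, as they were in Cyp7a1. The share of all genes with this order is not given here, so the count of 3 is not read as a result about clock genes. The part of clock phase in the member values was not tested.

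Genes that mark the zones of the liver lobule did not move together between the genotypes. Of 8 pericentral genes, 3 were higher and 5 lower (median log2 fold change -0.14), and of 8 periportal genes 4 were higher and 4 lower (median 0.00), with 0 in either list at an unadjusted p under 0.05 in limma. In the sexes, 3 of the 8 periportal genes were lower in both female mice than in all males, namely Cyp2f2, Hal and Pck1, against 5% of all genes. Hsd17b13, named here after its values were seen, was higher in both female mice, at 854 to 1033 TPM against 498 to 731 TPM, as were 36.6% of all genes. Between the genotypes, hepatocyte marker sums were 59707 to 81523 TPM in Alb-Cre+ mice and 77994 to 85769 TPM in controls. This includes Apoa1, itself at 8802 to 10222 TPM against 15764 to 20844 TPM. Of the 6 hepatocyte markers, 2 were higher and 4 lower in Alb-Cre+ mice, with a median log2 fold change of -0.21. Values were separate and lower for 2 of the 6, against 385 of all 14189 genes. Kupffer cell marker sums were 97.6 to 387 TPM against 141 to 378 TPM. The part of the hepatocyte marker difference in the member values was not tested.

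The members varied together to different degrees over the 6 mice, as described by Pearson's r of log2(TPM + 0.1), in which genotype and sex are both shared by the points. Cyp7a1 had a higher r with Cyp27a1 (0.894), Hsd3b7 (0.855), Cyp8b1 (0.823) and Nr0b2 (0.796) than with Slc10a1 (0.316). Nr0b2 had an r of 0.729 with Abcb11 and 0.720 with Cyp7b1, and a negative value only with Slc10a1 (-0.165). Many genes outside the members had a higher r. Among genes that averaged 1 TPM or more, Abcb11 ranked 789 and Cyp7b1 814 by r with Nr0b2. By r with Cyp7a1, Cyp27a1 ranked 111 and Nr0b2 354. Among 10635 genes that averaged 1 TPM or more, the 5 with a pattern most like Cyp7a1 were Psmd2 (0.993), Stk11 (0.991), Bphl (0.990), Gm18236 (0.984) and Pex6 (0.983). For Nr0b2 they were Gne (0.995), Kynu (0.992), Paox (0.992), Tmem14c (0.991) and Timmdc1 (0.987). These values describe the shape of the pattern over 6 mice and not its size. All 10 named genes differed between the genotypes by log2 fold changes between -0.31 and -0.06.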

How the data were processed

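Total RNA from 6 livers was sequenced. The authors deposited TPM per annotated transcript (GRCm38), 1 column per mouse. The methods name STAR and RSEM, while the submitters' processing notes also list Salmon, and their versions are not given in the sources used here. A second deposited table holds the authors' own DESeq2 comparison (mean normalized count, fold change, standard error, statistic, p and adjusted p) and was not used.

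TPM were summed by gene symbol over 116748 transcripts, of which 163 without a symbol (at most 0.08869% of TPM in a mouse) were left out. Genes averaging 0.1 TPM or more were tested with limma 3.58.1 (R 4.3.3) on log2(TPM + 0.1) with a variance trend and Benjamini-Hochberg adjustment over all genes, at a threshold of 0.01, after a check on simulated data. A fold change on this scale understates the change of low genes. A count model could not be applied to TPM, and depth per mouse is unknown. The genotype was the only term, with the replicate block, sex as a covariate, other scalings and filters and left-out mice as alternatives. Same-numbered mice of the 2 genotypes deviated together across genes (r = 0.367, 0.588 and 0.37). Different-numbered mice had r between -0.444 and 0.171, with 0.0914 and 0.171 where both were male. The value of 0.588 is that of the 2 female mice, which share their sex. No label states a pairing, so the replicate numbers were taken to pair the mice from these same data. Differences between sexes were fitted with genotype as a term. Median of ratios scaling used genes above 1 TPM in every mouse.

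Genes named were the 10 members. Of the other bile acid lists, they were the genes not tested, those whose values did not overlap between genotypes, those whose log2 fold change reached 1 in either direction and those with an unadjusted p under 0.05 with or without the block. Of other lists, up to 3 genes were named by size of difference, and for Cyp7a1 and Nr0b2 the 5 genes with the highest correlation. The members and lists were chosen with earlier results of these data known. Gene positions are from GENCODE on GRCm38, and upstream sequences from RefSeq on GRCm38.p6.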

Additional observations from a re-analysis of the deposited data

Results flagged for a closer look

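In Slc10a1 the female pair had a log2 difference between genotypes of -0.03, while both male pairs had the opposite sign (0.20 and 0.28), and a genotype-by-sex interaction added after the data were seen gave a limma adjusted p = 0.916. In Nr0b2 the female pair had a log2 difference of 0.53, while the male pairs were at -0.72 and -2.37, and the same interaction gave a limma adjusted p = 0.775. With 1 female mouse per genotype, this fit left 2 residual degrees of freedom.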

How the results depend on the processing

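TPM keeps no read count, each genotype has 3 mice and each sex difference rests on 2 female mice. The widest intervals between genotypes were those of Cyp7a1, Cyp8b1, Cyp7b1 and Nr0b2 without the block, and with the replicate block they narrowed for Cyp7a1 (-0.79 to -0.20) and Cyp7b1 (-0.40 to 0.30) and stayed wide for Cyp8b1 (-1.63 to 0.18) and Nr0b2 (-2.17 to 0.46). The cause of the changes below was not tested. Over all genes, calls between genotypes went from 0 to between 0 and 1 when 1 mouse was left out. Calls between sexes went from 73 to between 3 and 51 with 1 mouse left out, to 28 with no filter, 31 with no variance trend, 286 with no genotype term (added after the data were seen) and 1019 at an adjusted p under 0.05. Members called between genotypes stayed at 0 under every alternative run.

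Members with an unadjusted p under 0.05 between genotypes went from 0 to 1 with the replicate block, with the replicate block and median of ratios scaling, and in male mice only, and ranged from 0 to 1 with 1 mouse left out. Members whose genotypes did not overlap ranged from 0 to 1 likewise. Members called between sexes went from 1 to 0 with no filter and with no variance trend, and ranged from 0 to 1 with 1 mouse left out. Of the other bile acid genes, those with an unadjusted p under 0.05 went from 1 to 8 with the replicate block, 7 with the block and rescaling, 7 with sex as a covariate, 5 in male mice only, 2 after rescaling and 0 with no filter or no variance trend, and ranged from 0 to 6 with 1 mouse left out, while those called between sexes ranged from 0 to 1. Over all genes, those with an unadjusted p under 0.05 between genotypes went from 250 to 666 with the replicate block. The block changed no call between genotypes at the adjusted threshold. With 1 mouse left out, the log2 fold changes between genotypes ranged from -0.98 to 0.10 for Cyp7a1, -1.12 to -0.03 for Cyp8b1, -0.34 to -0.04 for Hsd3b7, -1.89 to -0.27 for Nr0b2, -0.33 to 0.01 for Cyp27a1, -0.91 to 0.83 for Cyp7b1, -0.11 to 0.22 for Akr1d1, -0.02 to 0.17 for Baat, -0.05 to 0.29 for Slc10a1 and -0.13 to 0.24 for Abcb11.

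In male mice only, reversed values were -0.05 for Akr1d1, -0.06 for Baat and -0.12 for Abcb11.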
